A study of Homo sapiens with 8 samples.

Results

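SELENOF, also called SEP15, encodes a small selenoprotein of the endoplasmic reticulum (ER). It is described here across 4 human multiple myeloma cell lines with and without knockdown of MMSET I. MMSET I is a short protein form made from NSD2, a gene for a histone H3 lysine 36 methyltransferase. All table rows whose platform annotation gives the symbol SELENOF were taken. There was 1 such row (transcript cluster 16689227) of 44629 in the table, and SELENOF was thus 1 of 14812 named genes. The gene was picked with its knockdown result known. In the comparison of ShMI with control arrays it was among the 13 genes of 11109 (0.117%) with an adjusted p under 0.05, of which 11 were lower (0.099%) and 2 higher (0.018%). Its own value was 0.0291. That difference is therefore described below and not tested, and tests are given only for the levels of the lines and for other genes.

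The arrays fall into ShMI, in which an shRNA against MMSET I was delivered by lentivirus, and control, with 1 ShMI and 1 control array from each of KMS11, KMS18, KMS34 and OPM2 (4 ShMI and 4 control arrays). All 4 are established plasma cell lines with the t(4;14) translocation, so both groups carry it. Per the labels' protocols, infection was done with 8 µg/mL polybrene, and RNA was taken 48 h after the medium was changed. The sources used here state neither the shRNA sequence, nor what the control was, nor how many cultures stand behind an array. Each array was an Affymetrix Human Gene 2.0 ST array, and its values are linear intensities in arbitrary units as deposited.

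A selenoprotein contains selenocysteine, which is written into the protein at a UGA codon that would otherwise end translation. This needs a hairpin in the messenger RNA (the SECIS element), its binding protein SECISBP2, the elongation factor EEFSEC and a dedicated transfer RNA. SELENOF has a thioredoxin-like fold and is held in the ER through its binding to UGGT1 and UGGT2, the glucosyltransferases that recognise incompletely folded glycoproteins and return them to calnexin and calreticulin. Plasma cells secrete large amounts of immunoglobulin, a disulfide-bonded glycoprotein, and depend on this folding machinery.

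In the RefSeq table of GRCh38.p14, SELENOF lies on chromosome 1 from base 86862445 to base 86914577, on the minus strand, with 2 coding and 2 noncoding transcripts. The array row covers the gene as a whole and does not separate them. RefSeq gives 2 starts for the gene, at base 86914577 and at base 86914475. HS2ST1, which encodes a heparan sulfate 2-O-sulfotransferase, begins only 58 bases from the first of these starts, at base 86914635, and runs in the opposite direction. The 300-base promoter windows of the pair, taken from 250 bases before to 50 bases after each start, have 157 bases in common. The window of SELENOF is shown because this stretch begins both genes, and the values of HS2ST1 are given further on. It is chr1:86914528-86914827 (GRCh38.p14, minus strand, RefSeq), with the GC box hexamer in capitals as it reads on this strand:
SELENOF promoter: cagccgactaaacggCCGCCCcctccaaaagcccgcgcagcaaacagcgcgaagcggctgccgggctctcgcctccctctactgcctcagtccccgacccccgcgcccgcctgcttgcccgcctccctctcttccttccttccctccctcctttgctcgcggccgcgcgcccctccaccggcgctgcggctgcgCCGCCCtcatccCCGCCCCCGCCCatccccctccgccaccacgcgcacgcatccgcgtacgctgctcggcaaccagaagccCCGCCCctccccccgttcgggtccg

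The window had a GC content of 74.7% and 39 CpG dinucleotides, against medians of 58.7% and 14 over all 35116 RefSeq windows of this length. The GC box GGGCGG, searched on both strands, occurred 5 times, each time on the opposite strand, and 45.0% of all windows held at least 1. The CCAAT box CCAAT, the TATA box TATAAA, the ER stress element (CCAAT and CCACG with 9 bases between them) and the antioxidant response element core TGACNNNGC were not in these letters on either strand. They were in 34.6%, 11.5%, 0.077% and 13.3% of all windows. None of the 5 hits overlapped another. The window of the second start held 4 GC boxes and 2 CCAAT boxes. Of 23 selenoprotein genes with a window, 19 held a GC box, 15 a CCAAT box, 5 a TATA box, 5 the antioxidant core and 0 the ER stress element. A gene counts here if any of its windows holds the motif, and SELENOF is among the 15 through its second window only. These counts by gene are therefore not comparable with the shares of windows above, and no share over all genes was computed.

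SELENOF was lower in the ShMI array than in the control array of all 4 lines. In KMS11 its intensity was 944 in the ShMI array and 1461 in the control array. In KMS18 it was 1170 in the ShMI array and 1446 in the control array. In both lines the ShMI array was the lower. In KMS34 the intensity was 1454 in the ShMI array and 2044 in the control array. In OPM2 it was 1329 in the ShMI array and 1902 in the control array. The groups overlapped at 1 point only, since the ShMI array of KMS34 lay just above the control array of KMS18. The plot of SELENOF on each array shows the pairs. No line has replicate arrays, so the gap within a line has no error of its own.

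**Figure D1:**
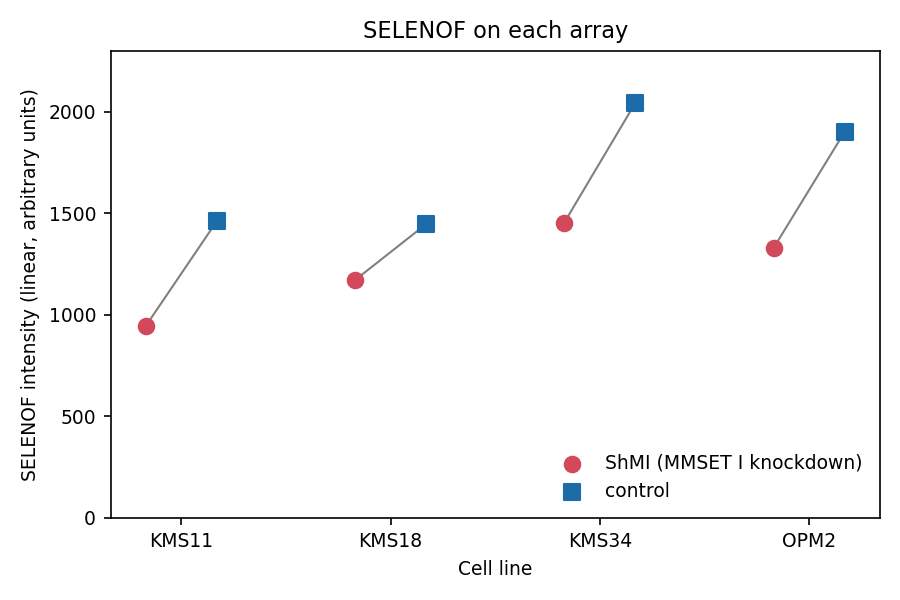
SELENOF intensity (linear, arbitrary units, axis from 0) on the 8 arrays by cell line, with ShMI as circles on the left and control as squares on the right, and a line joining the pair of a cell line. The ShMI value is the lower in each pair, and the ShMI value of KMS34 (1454) is just above the control value of KMS18 (1446).

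The mean intensity was 1224 ± 220 in ShMI arrays and 1713 ± 305 in control arrays (SD, n = 4 each). On the log2 scale the difference, ShMI minus control, was -0.63 for KMS11, the lowest, -0.52 for OPM2, -0.49 for KMS34 and -0.31 for KMS18. As a change of intensity this is -35.4% for KMS11, -30.1% for OPM2, -28.9% for KMS34 and -19.1% for KMS18. The mean log2 difference was -0.49 ± 0.13 (SD over the lines, n = 4), a change of -28.6%. The median absolute difference over all 11109 genes tested was 0.0571, and 8.76% of them were lower in all 4 lines. Ordered from the lowest difference, SELENOF stood at place 20 of 11109 in KMS11, 22 in OPM2, 38 in KMS34 and 289 in KMS18, and at place 3 for the mean. In bulk RNA, fewer cells that express a gene and less RNA per cell cannot be told apart. The adjusted p by which the gene was picked was above 0.05 when any of the lines was left out (0.0795 without KMS18 to 0.196 without OPM2). The mean difference then ranged from -0.55 to -0.44. With a line left out, only 1 or 2 of the 11109 genes passed at all.

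The level of SELENOF also differed between the lines, a comparison for which the gene was not chosen. Over the ShMI and control array of each line together, the geometric mean intensity was 1724 in KMS34, 1590 in OPM2, 1301 in KMS18 and 1174 in KMS11. The range of line means was 0.55 log2 units, or 1.47-fold. It passed the moderated F test of limma between lines (adjusted p = 0.000777), as did 75.7% of all genes tested, whose median range was 0.52 log2 units. A difference of this size between these lines is thus common among genes.

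By their means over both arrays, the 4 lines fell into an upper and a lower pair. The steps were tested in the order of these same means. KMS34 and OPM2, the upper pair, differed by 0.12 log2 units (95% interval -0.10 to 0.33), which did not pass limma's test (adjusted p = 0.340, with 49.9% of all genes passing). OPM2 was 0.29 log2 units above KMS18, the next in order (interval 0.08 to 0.50), and this step passed (adjusted p = 0.0325, with 38.9% of all genes passing between these lines). KMS18 and KMS11, the lower pair, differed by 0.15 (interval -0.06 to 0.36), which did not pass (adjusted p = 0.211, with 56.5% of all genes passing). The same order held in ShMI arrays alone, but the pairs did not. The widest step there was from KMS18 (1170) to KMS11 (944), with OPM2 at 1329 and KMS34 at 1454. In control arrays alone KMS11, at 1461, lay slightly above KMS18, at 1446. The residual of these tests is the spread of the knockdown differences over the lines, because no line has replicate arrays. limma draws that spread towards a variance pooled over all genes.

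SELENOF was then set beside the other genes that encode selenoproteins. Of 25 listed selenoprotein genes, 19 had a named row. Those of the deiodinases DIO1, DIO2 and DIO3 and of SELENON, SELENOP and SELENOW were not analysed here. GPX2 was too dim (mean intensity under 46.7, the 25th percentile of named genes), which left 17 genes beside SELENOF. Among these 17, 0 passed limma's test of ShMI against control (background 0.117% of all genes), and TXNRD1 alone had an unadjusted p under 0.05, against 8.41% of all genes in either direction and 4.15% lower. The mean difference was below 0 in 12 of 17 genes, against 51.6% of all genes, and the list's median was -0.06, against -0.0033 over all genes. Differences ran from -0.14 for TXNRD1 to 0.14 for TXNRD2. The 95% intervals of the 17 differences reached down to -0.28 at the lowest, for GPX1, and up to 0.31 at the highest. They are not a test against SELENOF, whose own difference was what it was chosen for.

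The other ER selenoproteins lay on both sides of 0. SELENOM, the closest relative of SELENOF, with the same fold and a similar redox motif, was at 68.9 (KMS11), 83.8 (KMS18), 78.0 (KMS34) and 82.8 (OPM2) in ShMI arrays and at 79.8, 93.4, 82.1 and 83.9 in control arrays of the lines in the same order. It was thus a little lower in ShMI in 4 of 4 lines. Its mean log2 difference was -0.12 (95% interval -0.25 to 0.02), and it did not pass (limma, adjusted p = 0.673). SELENOS, a membrane protein that recruits the p97 ATPase for ER-associated degradation, was higher in 4 of 4 lines, at 120.1, 158.7, 95.5 and 111.4 in ShMI arrays and 116.6, 142.1, 91.4 and 105.3 in control arrays. Its difference of 0.09 did not pass either (adjusted p = 0.743). SELENOT, an ER membrane oxidoreductase, had a difference of -0.06 (-0.21 in KMS11, -0.07 in OPM2, 0.0047 in KMS34 and 0.04 in KMS18). SELENOK, a cofactor of protein palmitoylation in the ER membrane, had one of 0.01 and ran from -0.28 in OPM2 to 0.18 in KMS34.

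The thioredoxin reductase, glutathione peroxidase and methionine sulfoxide reductase genes of the list showed no passing change. TXNRD1, the cytosolic thioredoxin reductase, had intensities of 348 (KMS11), 257 (KMS18), 441 (KMS34) and 342 (OPM2) in ShMI arrays and 355, 284, 506 and 386 in control arrays of the same lines. It was lower in 4 of 4 lines with a difference of -0.14 (adjusted p = 0.594). The mitochondrial reductase TXNRD2 was at 0.14 and the thioredoxin-glutathione reductase TXNRD3 at 0.13, both with their highest value in KMS11 (0.40 and 0.38). The peroxidase genes were at -0.11 for GPX1, -0.02 for GPX3, -0.07 for GPX4, which reduces lipid peroxides, and 0.03 for GPX6. The methionine sulfoxide reductase gene MSRB1 was at -0.10. GPX6, with a mean intensity near 47 in both groups, was close to the brightness limit. GPX3 (means of 52.4 in ShMI arrays and 53.4 in control arrays) lay little above it. GPX1 (69.9 and 75.9), TXNRD3 (70.2 and 64.4), SELENOM (78.4 and 84.8) and SELENOV (80.3 and 80.7) were also dim. The means of SELENOF were 1224 and 1713 in the same groups.

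The remaining selenoprotein genes likewise missed the threshold. SELENOI, an ethanolamine phosphotransferase of phospholipid synthesis, had a difference of -0.38 in OPM2, against -0.03 in KMS18, -0.02 in KMS34 and 0.03 in KMS11, with a mean of -0.10. SEPHS2, which makes the selenium donor for selenocysteine and is itself a selenoprotein, was lower in 4 of 4 lines at -0.08. SELENOH, a nucleolar protein, was at -0.09, the mitochondrial AMP transferase SELENOO at -0.05 and SELENOV at -0.0019. In each of the 4 lines the lowest difference of any measured selenoprotein gene was that of SELENOF. The nearest was MSRB1 in KMS18, at -0.28 beside -0.31 for SELENOF. In KMS11 the next lowest was SELENOT (-0.21), in KMS34 GPX1 (-0.27) and in OPM2 SELENOI (-0.38). The plot of differences by selenoprotein gene shows these values, and since SELENOF was chosen on its difference its place there is a description.

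**Figure D2:**
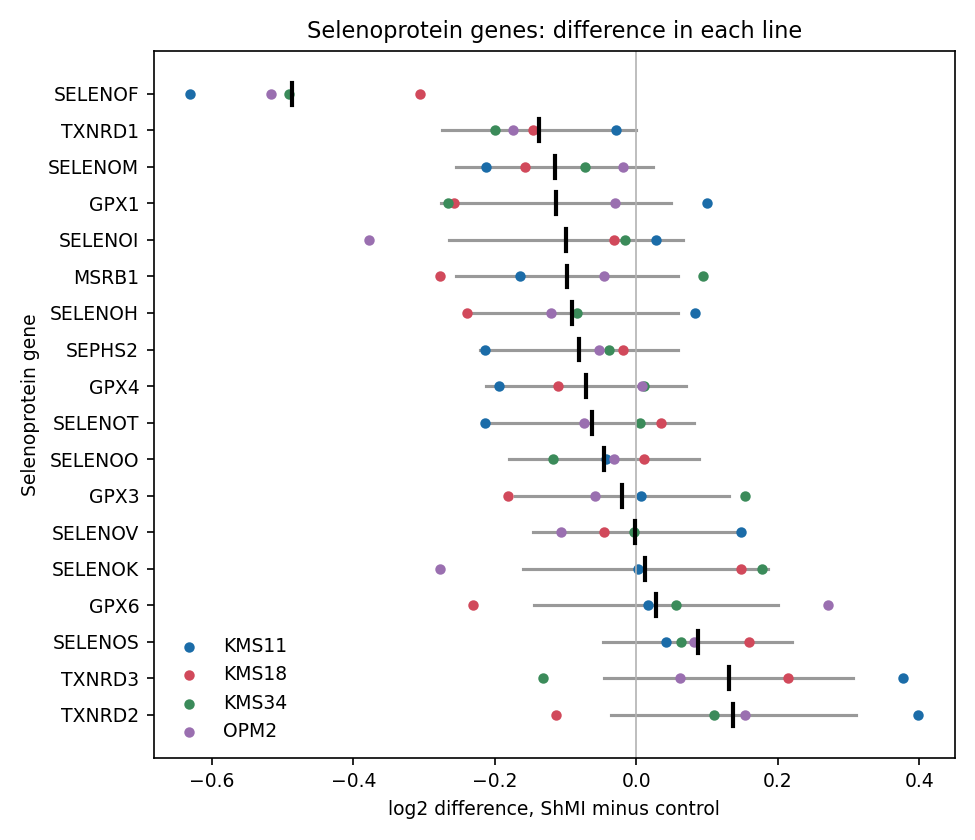
Log2 difference, ShMI minus control, of 18 selenoprotein genes, with 1 point per cell line, a black bar for the mean and a grey bar for the 95% interval of limma (not drawn for SELENOF, which was chosen on this difference). SELENOF has a mean of -0.49, and the means of the other 17 genes lie between -0.14 and 0.14.

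Between lines, 11 of the 17 other selenoprotein genes passed the moderated F test (64.7%, against 75.7% of all genes). The widest range of line means was that of SELENOH, at 2.31 log2 units or 4.97-fold, highest in KMS11 and lowest in KMS18 (adjusted p = 7.23e-09). SELENOO spanned 1.33 log2 units, with KMS11 again highest and KMS18 lowest (adjusted p = 2.01e-07). SELENOF, at 0.55, lay between these and SELENOM, whose range of 0.25 did not pass (adjusted p = 0.104). Over both arrays of a line, none of the other 17 genes was highest in KMS34 and lowest in KMS11, as SELENOF was. That trait rests on the step from KMS18 to KMS11, which did not pass for SELENOF (limma, adjusted p = 0.211). In control arrays alone SELENOF was lowest in KMS18. TXNRD1 had the same order as SELENOF there, at 506 in KMS34, 386 in OPM2, 355 in KMS11 and 284 in KMS18. Over both arrays, TXNRD1 and SELENOT also were highest in KMS34 but lowest in KMS18. TXNRD3 and SELENOK were highest in KMS34 and lowest in OPM2. SEPHS2 and SELENOS ran the other way at the upper end, highest in KMS18 and lowest in KMS34.

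**Figure D3:**
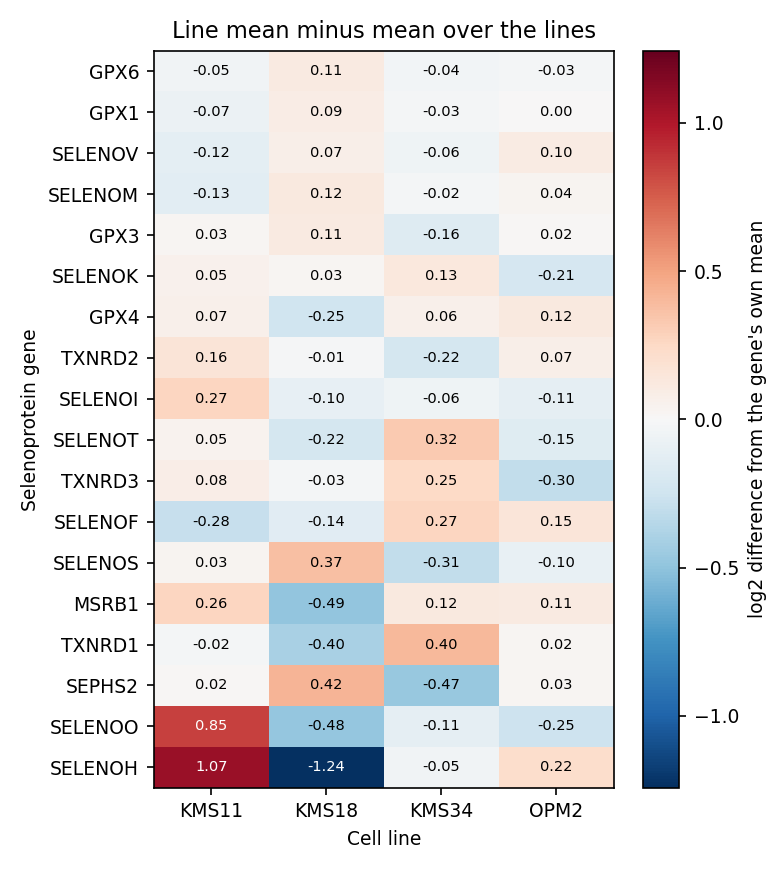
Mean log2 intensity of each cell line (ShMI and control array together) minus the gene's own mean over the 4 lines, for 18 selenoprotein genes ordered by their range, with colour and printed number giving the log2 difference. SELENOF is above its mean in KMS34 and OPM2 and below it in KMS18 and KMS11, and SELENOH has the widest range (2.31).

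The genes that make and insert selenocysteine had 0 of 12 measured members past limma's threshold (0.117% of all genes). At an unadjusted p under 0.05 there were 0 (8.41% of all genes). Of the 12, 8 were below 0 (51.6% of all genes), with a median of -0.07. With so few genes passing, a count of 0 is usual for lists of this size, here and below. SECISBP2, which binds the SECIS element, was at 514.6 ± 126 in ShMI arrays and 508.4 ± 132 in control arrays (SD, n = 4 each), a log2 difference of 0.02 (95% interval -0.12 to 0.16, adjusted p = 0.957). SEPSECS, the enzyme that completes selenocysteine on its transfer RNA, was higher in 4 of 4 lines, at 0.12 (adjusted p = 0.675). SEPHS1, a cysteine-type relative of SEPHS2, was lower in 4 of 4 lines, at -0.10 (adjusted p = 0.727), as was TRNAU1AP, a protein associated with the selenocysteine transfer RNA, at -0.06. EEFSEC was not analysed here. Of 8 measured genes for relatives of selenoproteins that carry cysteine in place of selenocysteine, 0 passed and 0 had an unadjusted p under 0.05 (median 0.0051). The shares of all genes are those just given.

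Of 4 measured genes of selenium uptake and turnover, 0 passed, against 0.117% of all genes. SELENBP1, the selenium-binding methanethiol oxidase, was lower in 4 of 4 lines (56.1 ± 4.7 in ShMI arrays and 62.2 ± 2.6 in control arrays, SD, n = 4 each). Its log2 difference of -0.15 had an unadjusted p under 0.05 and an adjusted p of 0.590 in limma, at a level near the brightness limit.

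UGGT1, the binding partner of SELENOF, was slightly higher in the ShMI array of each line. It was at 584 (KMS11), 539.5 (KMS18), 643 (KMS34) and 640 (OPM2) in ShMI arrays and at 542, 472, 594 and 563 in control arrays of the same lines. The log2 differences, 0.11, 0.19, 0.11 and 0.18, had a mean of 0.15 (95% interval 0.02 to 0.28), with an unadjusted limma p of 0.0304 and an adjusted p of 0.568. UGGT1 thus did not pass over all genes, of which 8.29% were higher in 4 of 4 lines. UGGT2 was higher by 0.32 in KMS11 and 0.26 in KMS18, at 0.00042 in OPM2 and at -0.15 in KMS34 (mean 0.11, adjusted p = 0.760). The lectin chaperones calnexin (CANX, 0.04) and calreticulin (CALR, 0.03) were marginally higher in 4 of 4 lines, and CALR was at -0.01 after quantile normalization. Over the UGGT and calnexin cycle, 0 of 9 measured genes passed, against 0.117% of all genes. A mean above 0 was seen in 7 of the 9 (median 0.04), while 51.6% of all genes were below 0.

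Among the protein disulfide isomerases and oxidases of the ER, 0 of 16 measured genes passed, against 0.117% of all genes. There were 4 below 0 and 12 above (median 0.04), while 51.6% of all genes were below 0. The 2 lowest were TXNDC12 and ERP29, each lower in 4 of 4 lines. TXNDC12, a thioredoxin-like ER protein, was at -0.15 (unadjusted p under 0.05, adjusted p = 0.578), and ERP29, a folding factor of the same family without the active cysteine pair, was at -0.14 (adjusted p = 0.620). Higher in 4 of 4 lines were ERP27 at 0.12, the retention factor ERP44 at 0.09 and the sulfhydryl oxidase QSOX1 at 0.08 (adjusted p = 0.661, 0.737 and 0.778). The abundant isomerases P4HB, PDIA3, PDIA4 and PDIA6 were not analysed here.

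In ER-associated degradation, 0 of 14 measured genes passed (0.117% of all genes) and 0 had an unadjusted p under 0.05 (8.41% of all genes). There were 7 below 0 and 7 above (median 0.0027), while 51.6% of all genes were below 0. The channel gene DERL2 was lower in 4 of 4 lines at -0.12 (adjusted p = 0.628). Its relative DERL1, at 0.06, and the ubiquitin-conjugating enzyme gene UBE2G2, at 0.10, were higher in 4 of 4 lines (adjusted p = 0.809 and 0.690). In the plot of related pathways the lowest tested gene of these lists was SELENBP1, at -0.15.

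**Figure D4:**
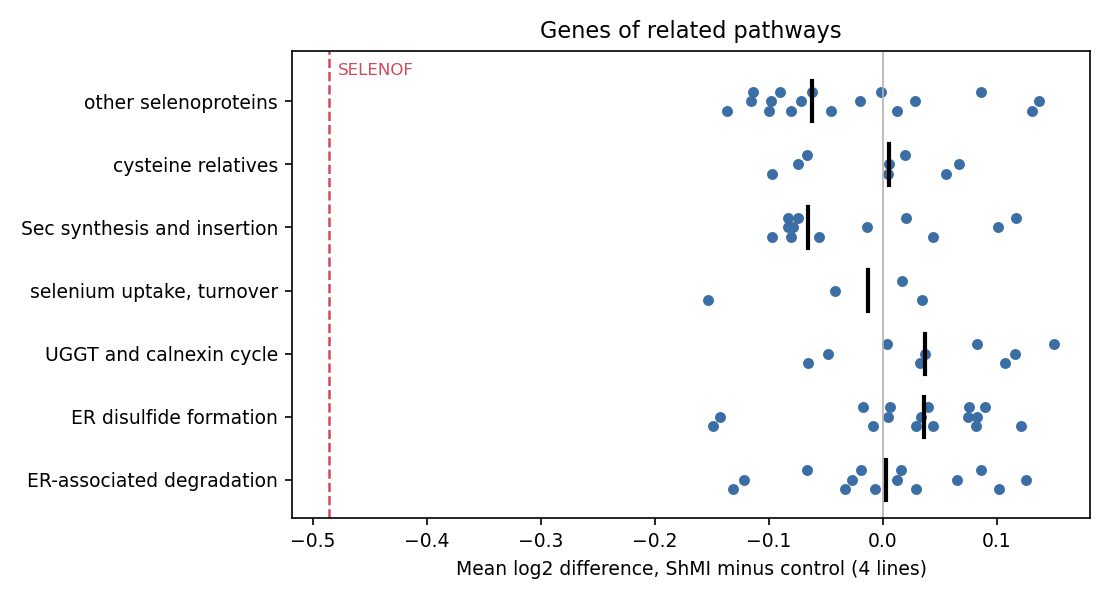
Mean log2 difference over the 4 lines, ShMI minus control, with 1 point per tested gene for the other selenoproteins and 6 related lists, a black bar at each list's median and a dashed line at SELENOF (-0.49). Points run from -0.15 (SELENBP1) to 0.15 (UGGT1), and points are spread vertically only to keep them apart.

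The genes next to SELENOF on chromosome 1 were read as well. Of the 5 nearest genes with a named row on each side, CLCA1, CLCA2, CLCA4 and LINC01364 were too dim. Of the other 6, 0 passed limma's test, against 0.117% of all genes. HS2ST1, whose start lies in the same promoter stretch, was at 332 (KMS11), 323 (KMS18), 450 (KMS34) and 544.5 (OPM2) in ShMI arrays and at 317, 294, 460 and 524 in control arrays of the same lines. Its log2 difference was 0.06 (95% interval -0.08 to 0.19, adjusted p = 0.843), so the pair that begins 58 bases apart differed in direction in KMS11, KMS18 and OPM2, and in size in KMS34 (-0.03 for HS2ST1 and -0.49 for SELENOF). SH3GLB1, on the other side, was at 0.02, and ODF2L, LMO4 and PKN2 were at -0.0042, -0.02 and 0.09. The long noncoding RNA LINC01140 was lower in 4 of 4 lines at -0.18 (unadjusted p = 0.0191, adjusted p = 0.511), with mean intensities of 57.7 in ShMI arrays and 64.6 in control arrays.

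**Figure D5:**
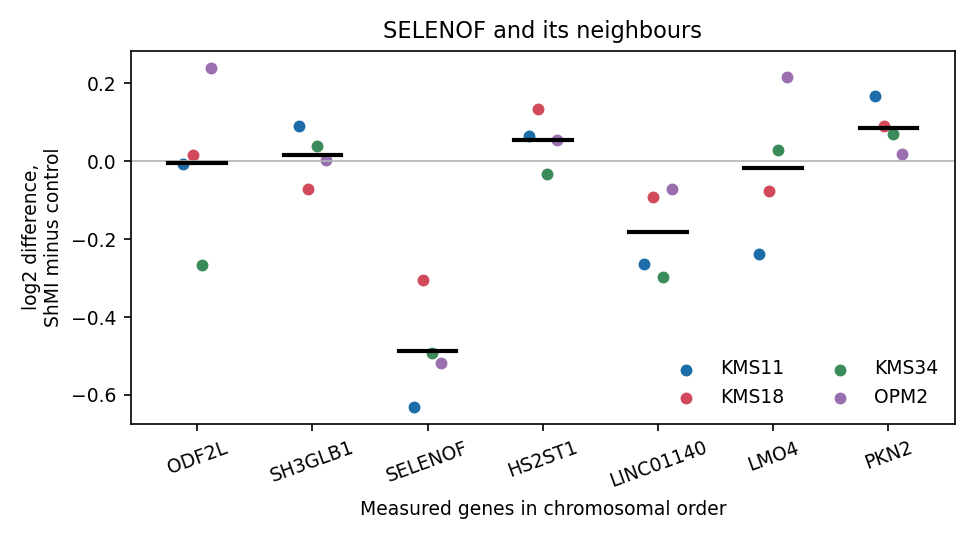
Log2 difference, ShMI minus control, of SELENOF and the 6 measured genes among its nearest neighbours, in chromosomal order and not to scale, with 1 point per cell line and a black bar for the mean. SELENOF is at -0.49, and the neighbours' means lie between -0.18 and 0.09.

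The genes whose profile was most like that of SELENOF were sought among 10637 tested genes other than small RNA and LOC symbols. Over the 8 log2 values the highest Pearson correlations were those of the TGF-beta family ligand gene NODAL (0.97), the helicase subunit gene MCM6 (0.93), the asparaginyl-tRNA synthetase gene NARS1 (0.93), BLOC1S6 (0.92), whose protein acts in the making of lysosome-related organelles, and CDCA5 (0.92), a regulator of sister chromatid cohesion. NODAL was dim, with mean intensities of 59.3 in ShMI arrays and 73.1 in control arrays (brightness limit 46.7), against 1224 and 1713 for SELENOF. The correlation was over 0.9 for 8 genes. These 8 points share 4 lines and 2 conditions, so they are not independent, and no p is given. The closest other selenoprotein gene was TXNRD1, at 0.60 and place 482, followed by SELENOM at 0.50, while TXNRD2 was at -0.75.

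By the distance between the 4 line differences alone, which takes no account of the level, the nearest genes were DSCC1 (0.21), MCM6 (0.21), the citrate synthase gene CS (0.22), the RNA polymerase III subunit gene POLR3G (0.25) and ACTR6 (0.26), in log2 units. MCM6 was the 1 gene in both groups of 5. Its differences were -0.52 in KMS11, -0.46 in OPM2, -0.32 in KMS34 and -0.28 in KMS18. Like SELENOF, it was thus lowest in KMS11 and least changed in KMS18. The same held for DSCC1 (-0.52 in KMS11 and -0.20 in KMS18), ACTR6 (-0.48 and -0.17) and NARS1 (-0.50 and -0.13). CS, by contrast, was nearly even over the lines, from -0.52 in OPM2 to -0.46 in KMS18. The genes nearest by distance were picked on the differences of SELENOF, so a shared pattern is in part built in.

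The knockdown itself and markers of cell type were read on the same arrays. NSD2, whose row does not separate MMSET I from the longer isoforms, was at 656 ± 76 in ShMI arrays and 743 ± 55 in control arrays (SD, n = 4 each), and missed limma's threshold (adjusted p = 0.472). GLO1, the gene named in the series title, was at 566 ± 125 in ShMI arrays and 946 ± 129 in control arrays, a log2 difference of -0.76 (limma, adjusted p = 0.00142), which did not pass over every row of the table (0.200) or without the cell line term (1). Of 12 plasma cell markers, 8 had a row and all 8 were above the brightness limit. The brightest were IRF4, XBP1, MZB1, SLAMF7 and SDC1 (869 to 1112 in ShMI arrays and 844 to 1053 in control arrays for SDC1). CD27 (means of 75.7 in ShMI arrays and 70.8 in control arrays) and POU2AF1 (78.9 and 76.9) were dim. CD38 was at 50.6 in the KMS11 control array. Of 27 markers of B, T, NK, myeloid, stromal and endothelial cells, 13 had a row and 9 of these were above the limit. Among them was CR2, with means of 146 in ShMI arrays and 115 in control arrays. The brightness limit alone thus does not tell the cell type. Of the 9, 0 passed for the knockdown (0.117% of all genes), with CR2 at an unadjusted limma p under 0.05. Arrays of the same line correlated at 0.991 to 0.993 over the tested genes, and arrays of different lines at 0.880 to 0.915.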

How the data were processed

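For each transcript cluster the authors deposited 1 linear intensity per array, made in GeneSpring per the labels' series text. The sources used here do not give the background correction, normalization, summarization or filters. Depth does not apply; the number of arrays, 8, limits the precision. Raw probe signals were not used here.

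Of 44629 rows, 15835 had exactly 1 gene symbol, 0 several and 28794 none. Symbols were checked against RefSeq (GRCh38.p14), and 0 changed. The brightest row stood for each of 14812 genes. Genes under the 25th percentile of mean log2 intensity (5.54, an intensity of 46.7) were left out, leaving 11109. Log2 values were fitted with limma 3.58.1 in R 4.3.3 (lmFit, eBayes), with ShMI against control and cell line as terms. Benjamini-Hochberg adjustment was over all genes tested, at 0.05. Lines are the replicates (n = 4), and the pairing by line comes from the labels. Deviations from the group means correlated at 0.925 to 0.932 between arrays of the same line and at -0.135 at most between lines. Centring on the group means by itself pushes the values between lines below 0, so their sign carries no information on the pairing. No line has replicate arrays, so the residual of a gene is its spread over the lines. The p-values do not measure that spread alone, since eBayes draws it towards a variance pooled over all genes (12 degrees of freedom in total). CALR, for example, had an SD of 0.0147 over the lines, and the limma standard error of its mean difference was 0.0601. The first is a spread of single differences and the second an error of their mean, so they are not on the same scale.

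The member, the gene lists and the alternatives were chosen with earlier results of these data known. Named genes were SELENOF, all measured selenoprotein genes, UGGT1, UGGT2, SECISBP2, EEFSEC, SEPSECS and SEPHS1, in other lists up to 3 per direction with the same sign in 4 lines, 5 neighbours on each side, 5 genes by each measure of likeness, and NSD2 and GLO1. On simulated data for the knockdown comparison (10 draws, 200 of 11109 genes changed) 85.9% of genes shifted by 0.4 log2 units passed, and 5.37% of the calls were false. The adjustment is stricter when fewer genes change, and only 13 were called in the real comparison. The 85.9% therefore need not hold for these data, and a gene that did not pass is not shown to be unchanged. MCM6, at -0.395, did not pass (limma, adjusted p = 0.0510). Python 3.11.15 read the promoter windows.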

Additional observations from a re-analysis of the deposited data

Results flagged for a closer look

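Of 54 groups of 4 values examined (the log2 differences of SELENOF and the named genes, and the SELENOF levels of each group), 2 had a value far from the other 3, where chance alone would give about 2.7 (1 in 20). SELENOI had a log2 difference of -0.378 in OPM2 (208.8 in the ShMI array and 271.2 in the control array), against -0.03 to 0.03 in the other lines. DERL2 had one of -0.204 in KMS34, against -0.10 to -0.09 in the other lines. SELENOF itself had no such value.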

How the results depend on the processing

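The mean difference of SELENOF kept its sign in all 12 alternatives and ranged from -0.55 to -0.44. The adjusted p by which it was picked stayed under 0.05 in 5 of them. It was 0.102 with no filter on dim genes, 0.577 over every row of the table and 1 with no replicate block, that is, without the cell line term (difference -0.49, 0 genes called and 18 at an unadjusted p under 0.05). It was above 0.05 in each of the 4 settings that left out a line, in which 1 or 2 of all genes passed. The difference between lines passed in all 11 alternatives (range of line means 0.41 to 0.55, largest adjusted p 0.00738). In the 8 lists of other selenoprotein, pathway and neighbouring genes, 0 genes passed in any of the 12 alternatives. From 0 to 29 of all genes tested passed in these alternatives. Between 9 and 12 other selenoprotein genes passed between lines.

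Over 51 named genes, 12 of 600 values changed sign, and in 0 of these did the gene pass. They were CALR at -0.012 after quantile normalization and 8 genes with a line left out. In those settings GPX3 ranged from -0.078 to 0.034, GPX6 from -0.053 to 0.114, SELENOK from -0.043 to 0.109, SELENOV from -0.052 to 0.033 and SECISBP2 from -0.0098 to 0.043. ODF2L ranged from -0.086 to 0.083, SH3GLB1 from -0.0093 to 0.044 and LMO4 from -0.096 to 0.056. Calls were lost in 20 of the 600 values and gained in 8. GLO1, CS, POLR3G and BLOC1S6 each lost theirs with no replicate block and over every row of the table. With a line left out, CS and BLOC1S6 lost theirs each time and POLR3G except without KMS34, and BLOC1S6 also with no filter on dim genes. Gained were MCM6 under 4 alternatives (adjusted p from 0.0031 to 0.0477), DSCC1 under 2, and NARS1 and ACTR6 under 1 each. Signal over background could not be judged from the deposited values, which limits dim genes such as GPX3, GPX6, NODAL and SELENBP1.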
